A study of Mus musculus with 4 samples.

Results

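The 41 genes described here encode the enzymes and the transporter that supply a cell with nucleotides. They were chosen by name for their place in purine synthesis, pyrimidine synthesis, the making of deoxynucleotides or the salvage of bases and nucleosides. The choice was made with earlier results of these data known, so shares set beside those of all genes only describe these data. Of the 41, 40 had at least 1 probe set with a single gene symbol in the array annotation, among 18194 genes named on the array in all. Impdh2 was not analysed here. Expression was measured on 4 arrays of male mouse colon, each hybridised with biotin-labelled cRNA, and every group was 1 array. GFPlow held proliferating crypt cells and GFPhigh non-proliferating crypt cells of H2B-GFP mice, in which a histone H2B fused to green fluorescent protein is made from a tetracycline-responsive element. These mice had 7 days of doxycycline labelling and then 2 days without the drug, during which dividing cells dilute the label, and the fractions were sorted from isolated crypts by flow cytometry. Dox plus held colonic crypts of doxycycline-inducible β-catenin mice given doxycycline at 2.0 mg/ml in their drinking water for 5 days. Dox minus held crypts of untreated mice of the same genotype, so the drug and the induction cannot be told apart. The strain, age and number of mice behind an array, and the cell type that drives either transgene, were not given in these sources. With 1 array a group, no difference below has a replicate check or a test, and the number of arrays limits its precision.

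Cells build purine rings step by step on phosphoribosyl pyrophosphate, ending in IMP, from which AMP and GMP branch. The pyrimidine ring is made before the sugar phosphate is added, giving UMP and then CTP. Ribonucleotide reductase turns ribonucleotides into deoxynucleotides for DNA, thymidylate comes from dUMP, and salvage enzymes recover bases and nucleosides that would otherwise be lost. Dividing cells of the crypt base copy their DNA and make new ribosomes, both of which draw on these pools, and several of these genes are known as targets of E2F factors or of Myc in other settings.

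Values are the log2 expression values that the authors deposited, 1 per probe set and array, and the probe set with the highest 4-array mean stands for a gene. Values under a floor of 5 were set to 5, and a gene was measured in a pair if 1 or both of the values reached the floor. Where only 1 array did, the difference is a lower bound on its size. A difference of 1 or more is 2-fold. Of the 40 genes, 36 were at or above the floor on all 4 arrays and 38 were measured in each pair. Tyms, thymidylate synthase, lay under the floor on all 4 arrays in each of its 4 probe sets with a single symbol, so it has no value in either comparison. A further probe set, annotated with Tyms and another gene symbol, was not used, so whether Tyms was expressed is not settled here. Impdh1 was not measured in the GFP pair and Nme4 was not measured in the Dox pair. Levels are compared between arrays for 1 gene, never between genes. Where all 4 arrays are set side by side, the values are as deposited, and these sources do not say whether the pairs were normalized together.

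The labels were read beside marker lists. All 8 epithelial markers, among them Epcam and Vil1, were at or above the floor on all 4 arrays. Of 25 markers of myeloid cells, T cells, B or plasma cells, fibroblasts, muscle, endothelium and red blood cells, 5 reached the floor on GFPlow, 3 on GFPhigh, 8 on Dox plus and 9 on Dox minus. On a linear scale their summed signal was 432.4 on GFPlow and 302.2 on GFPhigh, and 805.2 on Dox plus and 1394 on Dox minus. The markers Cd3e, Cd79a, Cd68, Col1a1 and Pecam1 stayed under the floor throughout. Of the 9 markers measured in the Dox pair, 3 were past 2-fold in favour of Dox minus. Vim was at 6.64 on Dox plus and 8.43 on Dox minus, Laptm5 at 6.05 on Dox plus and 7.58 on Dox minus, and Jchain at 4.32 on Dox plus and 7.53 on Dox minus. The other markers, Ptprc, Gzmb, Cd8a, Csf1r, Lyz2 and Itgae, were within 2-fold there, with Ptprc at 6.58 on Dox plus and 7.19 on Dox minus. In the GFP pair Itgae (6.53 on GFPlow and 5.50 on GFPhigh) was the 1 marker past 2-fold. The part of other cell types in the nucleotide values was not tested. All 9 measured G2 and mitosis genes were past 2-fold in favour of GFPlow, with a median difference of 2.37, the direction that the labels give. The lists were chosen with earlier results of these data known, so this is no independent check of the labels. Of the 9 Wnt targets measured, 6 were past 2-fold in favour of Dox plus (median 2.10).

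**Figure D1:**
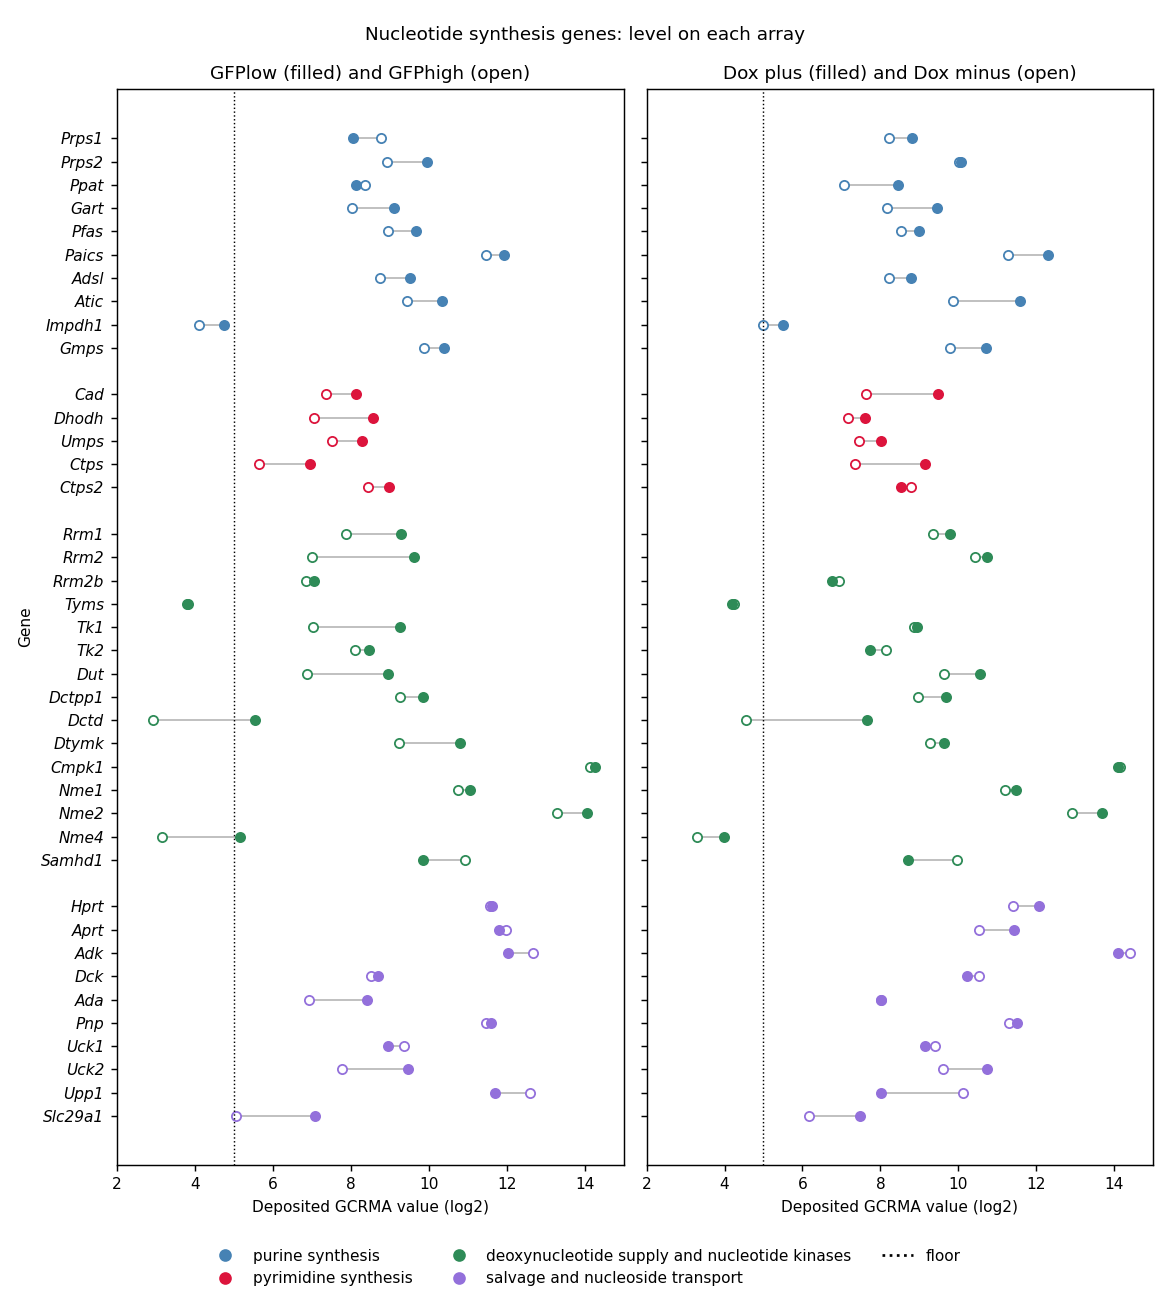
Deposited log2 value of each of the 40 genes on GFPlow (filled) and GFPhigh (open), left, and on Dox plus (filled) and Dox minus (open), right; each point is 1 array, colours give the role of the gene, and the dotted line is the floor of 5. The widest gaps in the left panel in favour of GFPlow, with both values above the floor, are those of Rrm2, Tk1, Dut and Slc29a1, and in the right panel Upp1 has the widest gap in favour of Dox minus.

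Nucleotide synthesis genes were mostly higher in the proliferating cells. Of the 38 measured genes, 12 (31.6%) were past 2-fold in favour of GFPlow, against 8.81% of all 9381 measured genes. At least 2-fold lower was 1 gene, Samhd1, where 4.30% of all measured genes were. The median difference of the 38 genes was 0.57 (1.49-fold), and that of all measured genes was 0.04. In all, 31 of the 38 (81.6%) had a higher value in GFPlow, against 53.2% of all measured genes. In a mixture of cells, fewer cells of a type and less RNA per cell cannot be told apart.

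After doxycycline the genes were again mostly higher. Of 38 measured genes, 9 (23.7%) were past 2-fold in favour of Dox plus, against 6.93% of all 9537 measured genes. At least 2-fold lower were 2 genes, Samhd1 and Upp1, or 5.26%, close to the 5.35% of all measured genes. The median difference was 0.49 (1.40-fold), and 0.06 over all measured genes. A higher value in Dox plus was found for 28 of the 38 (73.7%), against 55.0% of all measured genes.

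**Figure D2:**
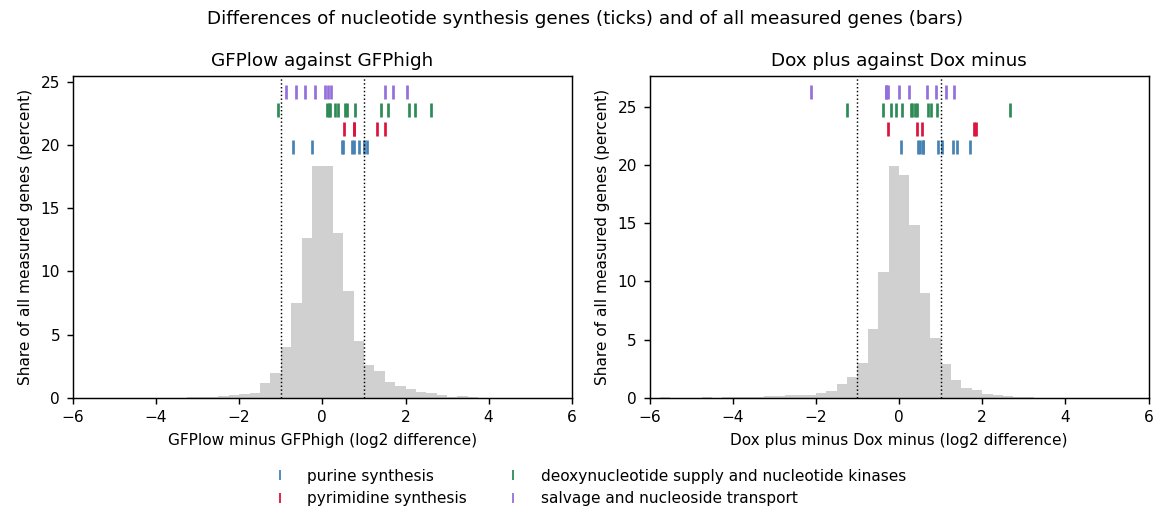
Share of all measured genes (percent, grey bars, in bins 0.25 wide) by log2 difference, GFPlow minus GFPhigh on the left and Dox plus minus Dox minus on the right, with genes beyond 6 counted in the outermost bin; each tick is 1 nucleotide synthesis gene, in the colour of its role, and dotted lines mark 2-fold. The median tick lies at 0.57 on the left and 0.49 on the right, against 0.04 and 0.06 for all measured genes.

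Genes of the purine pathway were mostly higher after doxycycline. The 10 measured purine genes each had a higher value in Dox plus as deposited, though Prps2 was level (0.05, and -0.01 with a loess correction). Of all measured genes 55.0% had a higher value there. At least 2-fold higher were 4 of the 10 (40%), against 6.93% of all measured genes, and the median difference was 0.76 (1.69-fold). In the sorted cells 7 of 9 (77.8%) were higher in GFPlow, against 53.2% of all measured genes, with a median of 0.72 (1.64-fold). At least 2-fold higher were 2 of the 9 (22.2%), against 8.81%. The first enzymes make phosphoribosyl pyrophosphate, the sugar on which the ring is built, and their X-linked genes went different ways. Prps1 values were 8.07 in GFPlow against 8.78 in GFPhigh (-0.71) and 8.81 in Dox plus against 8.22 in Dox minus (0.59). The GFPlow value was the lower of its pair and the Dox plus value the higher. For Prps2 the arrays gave 9.95 on GFPlow, 8.94 on GFPhigh, 10.06 on Dox plus and 10.01 on Dox minus, with differences of 1.01 within the GFP pair and 0.05 within the Dox pair. Its other probe sets differed by 1.70 and 0.87 in the GFP pair, and by 0.38 and 1.17 in the Dox pair.

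Ppat, the amidotransferase of the committed step, and Paics, which carries out a pair of later steps, stand next to each other on chromosome 5. Their promoters are shown because the genes lie on opposite strands with annotated starts 276 bases apart and were both at least 2-fold higher in Dox plus. By these coordinates each gene reads towards the annotated start of the other, so the starts are not separated by a stretch outside both genes. The sequences are those of RefSeq on GRCm38.p6, from 250 bases before to 50 bases after the annotated start, read 5′ to 3′ on the strand of the gene. Capitals mark CACGTG, the E-box bound by Myc and related factors, and TTTGGCGC, TTTCCCGC, TTTCGCGC or TTTGCCGC, forms of the E2F motif, each looked for on both strands. The forms of the E2F motif do not overlap the E-box in any window shown.
Paics, chr5:76951052-76951351, plus strand: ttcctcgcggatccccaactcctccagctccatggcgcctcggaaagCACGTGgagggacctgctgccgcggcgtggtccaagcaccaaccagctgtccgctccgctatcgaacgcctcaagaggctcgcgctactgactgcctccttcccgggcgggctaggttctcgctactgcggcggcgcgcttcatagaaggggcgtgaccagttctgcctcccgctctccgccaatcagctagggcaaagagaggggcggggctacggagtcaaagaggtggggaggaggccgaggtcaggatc
Ppat, chr5:76951529-76951828, minus strand: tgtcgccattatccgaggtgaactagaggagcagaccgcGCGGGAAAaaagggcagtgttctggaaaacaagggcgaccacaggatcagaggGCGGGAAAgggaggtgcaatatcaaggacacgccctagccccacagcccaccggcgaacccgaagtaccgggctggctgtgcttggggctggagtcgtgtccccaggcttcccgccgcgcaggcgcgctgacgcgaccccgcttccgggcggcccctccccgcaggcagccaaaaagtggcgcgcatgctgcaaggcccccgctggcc
The Paics window holds 1 E-box, which begins 203 bases before the start. The Ppat window holds 2 E2F motifs, beginning 211 and 158 bases before the start, both read on the opposite strand as GCGGGAAA. A match describes the letters and is not a measured site.

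The level of Ppat was 8.13 on GFPlow and 8.37 on GFPhigh, which differ by -0.24, and 8.46 on Dox plus and 7.07 on Dox minus, which differ by 1.39. A second measured probe set differed by -0.09 in the GFP pair and by 1.73 in the Dox pair. Ppat was thus at nearly one level in the sorted fractions and 2.62-fold higher in Dox plus. Paics read 11.94 on GFPlow and 11.47 on GFPhigh, a difference of 0.46, and 12.31 on Dox plus and 11.27 on Dox minus, a difference of 1.04. Its 3 probe sets differed by 0.27 to 1.04 in the Dox pair, so the 2-fold difference rests on 1 of them, and by -0.14 to 0.46 in the GFP pair.

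Among the other enzymes of ring building, Gart, Pfas and Adsl were higher in GFPlow and in Dox plus. Gart values were 9.11 in GFPlow against 8.04 in GFPhigh (1.07) and 9.45 in Dox plus against 8.16 in Dox minus (1.29). Gart encodes a multifunctional enzyme of the early ring steps, and was at least 2-fold higher in GFPlow and in Dox plus. All its measured probe sets went the same way, by 0.66 to 1.65 in the GFP pair and by 0.50 to 1.43 in the Dox pair. For Pfas the arrays gave 9.67 on GFPlow, 8.95 on GFPhigh, 8.99 on Dox plus and 8.53 on Dox minus, with differences of 0.72 within the GFP pair and 0.46 within the Dox pair. Pfas makes the amidine before the ring closes. The level of Adsl was 9.52 on GFPlow and 8.76 on GFPhigh, which differ by 0.76, and 8.79 on Dox plus and 8.21 on Dox minus, which differ by 0.58. Adsl, adenylosuccinate lyase, acts in ring building and again on the way to AMP. Both were within 2-fold in each pair and higher in GFPlow and in Dox plus.

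Atic, which closes the ring to give IMP, had the largest difference of the purine genes after doxycycline. Atic read 10.33 on GFPlow and 9.45 on GFPhigh, a difference of 0.88, and 11.57 on Dox plus and 9.86 on Dox minus, a difference of 1.70. The Dox plus value was the highest of the 4 and the GFPhigh value the lowest. Its other probe set gave 1.81 in the GFP pair against 2.20 in the Dox pair. Its promoter is shown for the E-box that begins 7 bases before the annotated start, in capitals.
Atic, chr1:71556906-71557205, plus strand: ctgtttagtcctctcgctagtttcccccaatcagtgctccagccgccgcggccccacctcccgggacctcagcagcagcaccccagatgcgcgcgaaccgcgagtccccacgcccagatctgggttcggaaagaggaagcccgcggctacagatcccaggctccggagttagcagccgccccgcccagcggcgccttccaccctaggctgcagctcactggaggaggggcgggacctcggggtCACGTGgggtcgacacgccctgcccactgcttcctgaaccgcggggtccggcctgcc
Of all 32851 promoter windows of this length, 7.15% hold CACGTG and 2.26% one of the E2F forms. RefSeq windows were found for 38 of the 41 genes, 57 windows in all because some genes have several starts. An E-box was in 8 of the 57 (14.0%), those of Atic, Dtymk, Impdh2, Nme1, Paics, Slc29a1 and Tyms, and an E2F form in 2 (3.51%), those of Ppat and Prps2.

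The branch to guanine nucleotides runs through IMP dehydrogenase and GMP synthetase. Impdh1 read 4.76 on GFPlow, 4.11 on GFPhigh, 5.51 on Dox plus and 4.99 on Dox minus. Dox minus lay just under the floor, so the difference of 0.51 is a lower bound, and both sorted fractions were under the floor. Gmps values were 10.39 in GFPlow against 9.88 in GFPhigh (0.51) and 10.71 in Dox plus against 9.78 in Dox minus (0.93). A second measured probe set differed by 0.76 in the Dox pair, and the GFP pair ranged from 0.02 to 0.55, both ends being bounds.

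In pyrimidine synthesis all 5 genes had a higher value in GFPlow, against 53.2% of all measured genes, with a median of 0.77 (1.71-fold). At least 2-fold higher were 2 (40%), against 8.81%. In Dox plus 4 of 5 (80%) were higher, against 55.0% of all measured genes, and 2 (40%) at least 2-fold, against 6.93%. The median in the Dox pair was 0.55 (1.46-fold). That median was 1.17 over the 4 genes left without probe sets of the _x_at, _s_at and _a_at kinds. Such probe sets can match more than 1 transcript, of 1 gene or of several. Cad joins the opening reactions of the pathway in 1 protein. For Cad the arrays gave 8.14 on GFPlow, 7.36 on GFPhigh, 9.48 on Dox plus and 7.63 on Dox minus, with differences of 0.77 within the GFP pair and 1.85 within the Dox pair. Its second measured probe set differed by 1.04 in the Dox pair and 0.88 in the GFP pair, so Cad was at least 2-fold higher in Dox plus by both and in GFPlow by neither. Dhodh is the enzyme of the pathway that sits in the inner mitochondrial membrane. The level of Dhodh was 8.56 on GFPlow and 7.05 on GFPhigh, which differ by 1.51, and 7.60 on Dox plus and 7.16 on Dox minus, which differ by 0.44. The 2-fold difference was in the sorted cells here, where its other probe set gave at least 1.62.

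Umps read 8.30 on GFPlow and 7.53 on GFPhigh, a difference of 0.76, and 8.00 on Dox plus and 7.45 on Dox minus, a difference of 0.55. Umps completes UMP, and a second probe set gave 1.43 in the GFP pair, where the mean of its measured probe sets was 1.10. Ctps and Ctps2 both make CTP from UTP. Ctps values were 6.96 in GFPlow against 5.65 in GFPhigh (1.31) and 9.15 in Dox plus against 7.35 in Dox minus (1.79). Ctps, with 1 probe set, was at least 2-fold higher in both pairs. For Ctps2 the arrays gave 8.99 on GFPlow, 8.45 on GFPhigh, 8.52 on Dox plus and 8.78 on Dox minus, with differences of 0.53 within the GFP pair and -0.27 within the Dox pair. Its paralog stayed within 2-fold and was slightly lower in Dox plus. The difference of Ctps exceeded that of Ctps2 by 0.78 in the GFP pair and by 2.06 in the Dox pair.

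Among the genes of deoxynucleotide supply and the nucleotide kinases, 13 of 14 measured (92.9%) had a higher value in GFPlow, against 53.2% of all measured genes. At least 2-fold higher were 5 (35.7%, against 8.81%) and at least 2-fold lower was 1, Samhd1 (7.14%, against 4.30%), with a median of 0.57. The median was 0.97 with a floor of 4 and 1.09 with no floor, because Dctd and Nme4 have bounds. In Dox plus 9 of 13 (69.2%) were higher, against 55.0% of all measured genes, with a median of 0.31 (1.24-fold). That median was 0.49 with the mean of measured probe sets and 0.20 over the 9 genes left without _x_at, _s_at and _a_at probe sets. At least 2-fold higher in Dox plus was 1 gene, Dctd (7.69%), close to the 6.93% of all measured genes. At least 2-fold lower was also 1, Samhd1 (7.69%, against 5.35%). Ribonucleotide reductase is made of the large subunit Rrm1 with either the small subunit Rrm2, which is known to accumulate in S phase, or Rrm2b, which is known to respond to p53. The level of Rrm1 was 9.29 on GFPlow and 7.88 on GFPhigh, which differ by 1.41, and 9.79 on Dox plus and 9.36 on Dox minus, which differ by 0.43. The second measured probe set gave 2.14 and 0.46 in the GFP and Dox pairs. Rrm2 read 9.61 on GFPlow and 7.00 on GFPhigh, a difference of 2.61, and 10.73 on Dox plus and 10.42 on Dox minus, a difference of 0.31. GFPhigh was the lowest of the 4 values. All 3 probe sets of Rrm2 were past 2-fold in GFPlow, by 1.30 to 2.61 with 1 of them a bound, and in the Dox pair they ranged from 0.31 to 1.05.

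Rrm2b values were 7.05 in GFPlow against 6.86 in GFPhigh (0.19) and 6.75 in Dox plus against 6.94 in Dox minus (-0.19). Rrm2b was at nearly one level on all 4 arrays. The difference of Rrm2 exceeded it by 2.42 in the GFP pair and by 0.50 in the Dox pair. The thymidine kinases show a like contrast between a cytosolic enzyme tied to S phase and a mitochondrial one. For Tk1 the arrays gave 9.27 on GFPlow, 7.04 on GFPhigh, 8.93 on Dox plus and 8.87 on Dox minus, with differences of 2.23 within the GFP pair and 0.06 within the Dox pair. GFPhigh alone was low. The level of Tk2 was 8.48 on GFPlow and 8.11 on GFPhigh, which differ by 0.37, and 7.73 on Dox plus and 8.13 on Dox minus, which differ by -0.40. Tk2 was within 2-fold in both pairs, and Tk1 minus Tk2 was 1.85 in the GFP pair against 0.46 in the Dox pair.

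Dut, which breaks down dUTP and yields the dUMP from which thymidylate is made, was 4.22-fold higher in GFPlow. Dut read 8.97 on GFPlow and 6.89 on GFPhigh, a difference of 2.08, and 10.55 on Dox plus and 9.63 on Dox minus, a difference of 0.92. The Dox pair was just short of 2-fold. Dctd makes dUMP from dCMP. Dctd read 5.55 on GFPlow, 2.94 on GFPhigh, 7.66 on Dox plus and 4.55 on Dox minus. It lay under the floor on GFPhigh and Dox minus, which bounds its differences at 0.55 or more for GFPlow and 2.66 or more for Dox plus (6.33-fold). The Dox plus value was the highest of the 4. Dctpp1, which removes excess dCTP and modified forms, was within 2-fold in both. Dctpp1 values were 9.86 in GFPlow against 9.26 in GFPhigh (0.60) and 9.68 in Dox plus against 8.97 in Dox minus (0.70).

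Dtymk, thymidylate kinase, sits where the new and the salvaged thymidylate meet. For Dtymk the arrays gave 10.81 on GFPlow, 9.23 on GFPhigh, 9.63 on Dox plus and 9.26 on Dox minus, with differences of 1.58 within the GFP pair and 0.37 within the Dox pair. Its 3 probe sets were all past 2-fold in GFPlow, by 1.58 to 2.32, and ranged from 0.20 to 0.89 in the Dox pair. The promoters of Dtymk and of Nme1 are shown because, with those of Paics and Atic, they hold an E-box, in capitals.
Dtymk, chr1:93801885-93802184, minus strand: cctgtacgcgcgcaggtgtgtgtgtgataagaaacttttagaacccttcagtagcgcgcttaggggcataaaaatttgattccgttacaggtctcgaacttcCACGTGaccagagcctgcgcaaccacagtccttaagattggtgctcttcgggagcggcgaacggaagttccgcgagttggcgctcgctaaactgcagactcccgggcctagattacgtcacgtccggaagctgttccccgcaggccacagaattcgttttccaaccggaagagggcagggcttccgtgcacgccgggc
Nme1, chr11:93968223-93968522, minus strand: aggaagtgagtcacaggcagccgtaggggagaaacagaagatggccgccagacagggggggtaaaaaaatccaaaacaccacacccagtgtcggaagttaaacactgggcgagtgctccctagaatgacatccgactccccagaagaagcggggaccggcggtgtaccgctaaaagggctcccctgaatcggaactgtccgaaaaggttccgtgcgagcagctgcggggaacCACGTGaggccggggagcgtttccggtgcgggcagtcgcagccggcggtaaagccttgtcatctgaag
The E-box begins 148 bases before the start in Dtymk and 18 bases before it in Nme1, whose second window, from another start, holds one 29 bases before its own.

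Nucleoside diphosphate kinases make the triphosphates, and Nme1 and Nme2 are near-identical neighbours whose probe sets may share targets. The level of Nme1 was 11.05 on GFPlow and 10.76 on GFPhigh, which differ by 0.30, and 11.48 on Dox plus and 11.20 on Dox minus, which differ by 0.29. These values come from a probe set of the _x_at kind. A second probe set, of the _a_at kind, gave 1.61 in the GFP pair against 1.01 in the Dox pair. The 2 probe sets of Nme1 thus disagree about 2-fold in both pairs. Nme2 read 14.07 on GFPlow and 13.29 on GFPhigh, a difference of 0.78, and 13.68 on Dox plus and 12.91 on Dox minus, a difference of 0.77. Nme2 was within 2-fold in each pair. Nme4 read 5.15 on GFPlow, 3.15 on GFPhigh, 3.98 on Dox plus and 3.30 on Dox minus. Nme4, the mitochondrial form, reached the floor on GFPlow alone, a bound of 0.15. Cmpk1 values were 14.26 in GFPlow against 14.15 in GFPhigh (0.11) and 14.08 in Dox plus against 14.15 in Dox minus (-0.07). Cmpk1, which phosphorylates UMP and CMP, was at nearly one level on all 4 arrays.

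Samhd1, an enzyme that hydrolyses deoxynucleotides and is known to keep their pools small in resting cells, was the 1 gene at least 2-fold lower in both pairs. For Samhd1 the arrays gave 9.85 on GFPlow, 10.92 on GFPhigh, 8.71 on Dox plus and 9.96 on Dox minus, with differences of -1.07 within the GFP pair and -1.25 within the Dox pair. GFPhigh had the highest value and Dox plus the lowest. Its 3 measured probe sets were all lower, by -2.04 to -0.75 in the GFP pair and by -1.25 to -0.44 in the Dox pair. The -0.44 is a bound, as Dox plus lay under the floor at 3.78 there. The mean of the 3 in the Dox pair, -0.89, is therefore a bound too. Of all genes measured in both pairs, 0.798% were at least 2-fold lower in both. Samhd1 is also known as an interferon-stimulated gene. The 11 measured interferon-stimulated genes all lay past 2-fold in favour of Dox minus (median -4.16), and in the GFP pair 2 of 11 were, with a median of -0.30. The summed linear signal of the 12 on the array was 4211 on Dox plus and 35488 on Dox minus, and 10201 on GFPlow and 13700 on GFPhigh. Their part in the Samhd1 values was not tested.

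The deoxynucleotide genes were read beside cell cycle lists that share no gene with them. Past 2-fold in favour of GFPlow were 9 of 14 measured S phase genes, and 4 in favour of Dox plus, with medians of 1.51 and 0.76. The medians of the 9 measured G2 and mitosis genes were 2.37 in the GFP pair against -0.83 in the Dox pair, where all 9 were lower in Dox plus and 4 at least 2-fold. On GFPhigh, labelled non-proliferating, 8 of the 9 G2 and mitosis genes and 11 of the 14 S phase genes still reached the floor. The share of the cell cycle in the nucleotide values was not tested.

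Salvage genes had no common direction. In the sorted cells 6 of 10 (60%) were higher in GFPlow, near the 53.2% of all measured genes (median 0.10). In the Dox pair 5 of 10 (50%) were higher in Dox plus, near the 55.0% of all measured genes (median 0.11). At least 2-fold higher were 3 (30%) in GFPlow, against 8.81% of all measured genes, and 2 (20%) in Dox plus, against 6.93%. At least 2-fold lower in Dox plus was 1 (10%), against 5.35%. Over the 5 genes left without _x_at, _s_at and _a_at probe sets the medians were -0.24 and -0.27. Dropped there were Hprt, Aprt, Dck, Pnp and Slc29a1, which have _a_at or _s_at probe sets only. With the mean of measured probe sets the medians were 0.10 and 0.45, so the sign of neither median was settled. The Dox median was 0.03 with quantile normalization and 0.07 with loess, and with Tk1 and Tk2 counted as salvage genes the medians were 0.16 and 0.03. The recycling of purine bases goes through Hprt and Aprt. The level of Hprt was 11.63 on GFPlow and 11.57 on GFPhigh, which differ by 0.07, and 12.05 on Dox plus and 11.39 on Dox minus, which differ by 0.66. The sorted fractions were close to each other and Dox plus was the highest of the 4. Aprt read 11.80 on GFPlow and 11.98 on GFPhigh, a difference of -0.18, and 11.42 on Dox plus and 10.53 on Dox minus, a difference of 0.89. Its second probe set gave 1.44 in the Dox pair and -0.12 in the GFP pair. Neither gene reached 2-fold in either pair by the probe set that stands for it.

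Among the nucleoside kinases, Uck2 and Uck1 both phosphorylate uridine and cytidine. Uck2 values were 9.47 in GFPlow against 7.77 in GFPhigh (1.70) and 10.74 in Dox plus against 9.60 in Dox minus (1.14). All 3 measured probe sets of Uck2 were past 2-fold in both pairs, by 1.17 (a bound) to 1.70 for GFPlow and by 1.14 to 1.83 (a bound) for Dox plus. For Uck1 the arrays gave 8.96 on GFPlow, 9.38 on GFPhigh, 9.13 on Dox plus and 9.40 on Dox minus, with differences of -0.42 within the GFP pair and -0.27 within the Dox pair. Uck1 was slightly lower in both, and Uck1 minus Uck2 was -2.12 in the GFP pair against -1.41 in the Dox pair. The level of Adk was 12.03 on GFPlow and 12.67 on GFPhigh, which differ by -0.64, and 14.09 on Dox plus and 14.41 on Dox minus, which differ by -0.32. Adk, adenosine kinase, was lower in every measured probe set, by -1.22 to -0.24 in the GFP pair and by -1.05 (a bound) to -0.32 in the Dox pair. Dck read 8.71 on GFPlow and 8.51 on GFPhigh, a difference of 0.20, and 10.21 on Dox plus and 10.52 on Dox minus, a difference of -0.31. Dck, which phosphorylates deoxycytidine, has probe sets that disagree in the Dox pair, from -0.31 to at least 2.26, so its direction there was not settled.

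Ada deaminates adenosine and deoxyadenosine. Ada values were 8.42 in GFPlow against 6.92 in GFPhigh (1.497) and 8.02 in Dox plus against 8.03 in Dox minus (-0.01). GFPhigh alone was low, and the Dox arrays were level. Pnp, the purine nucleoside phosphorylase that follows it, was within 2-fold. For Pnp the arrays gave 11.59 on GFPlow, 11.46 on GFPhigh, 11.51 on Dox plus and 11.28 on Dox minus, with differences of 0.13 within the GFP pair and 0.23 within the Dox pair. Slc29a1, the equilibrative transporter that lets nucleosides across the plasma membrane, was higher in both pairs. The level of Slc29a1 was 7.10 on GFPlow and 5.05 on GFPhigh, which differ by 2.05, and 7.48 on Dox plus and 6.16 on Dox minus, which differ by 1.32. GFPhigh lay just above the floor.

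Upp1, which splits uridine to uracil, had the largest difference in the other direction in the Dox pair. Upp1 read 11.71 on GFPlow and 12.59 on GFPhigh, a difference of -0.88, and 8.02 on Dox plus and 10.12 on Dox minus, a difference of -2.11. It was 4.31-fold lower in Dox plus and 1.84-fold lower in GFPlow, with 1 probe set. At least 2-fold lower in Dox plus were also the 11 measured interferon-stimulated genes, and 5.35% of all measured genes. A link between these and Upp1 was not tested.

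The differences of the pairs were set side by side. Of 37 genes measured in both pairs, 24 (64.9%, Slc29a1, Uck2, Gart and Ctps among them) were higher in GFPlow and in Dox plus, where 37.4% of all genes measured in both pairs were, and 4 (10.8%) were lower in both, against 28.6%. At least 2-fold higher in both were 4 genes (10.8%), Gart, Ctps, Uck2 and Slc29a1, against 2.03% of all genes. Past 2-fold in GFPlow and not in Dox plus were 8 genes (21.6%), Prps2, Dhodh, Rrm1, Rrm2, Tk1, Dut, Dtymk and Ada, against 6.65% of all genes. Past 2-fold in Dox plus and not in GFPlow were 5 genes (13.5%), Ppat, Paics, Atic, Cad and Dctd, against 4.37% of all genes, and Dctd has bounds in both pairs. Over all genes too, more were past 2-fold in 1 pair than in both. The split goes by the probe set that stands for each gene. By another measured probe set Atic reached 1.81 in the GFP pair, and Prps2 1.17 and Rrm2 1.05 in the Dox pair. The remaining measured genes were within 2-fold in both (18 genes) or lower (Samhd1 and Upp1). The pairs come from different mice and share no array, and whether a gene's 2 differences differ was not tested.

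**Figure D3:**
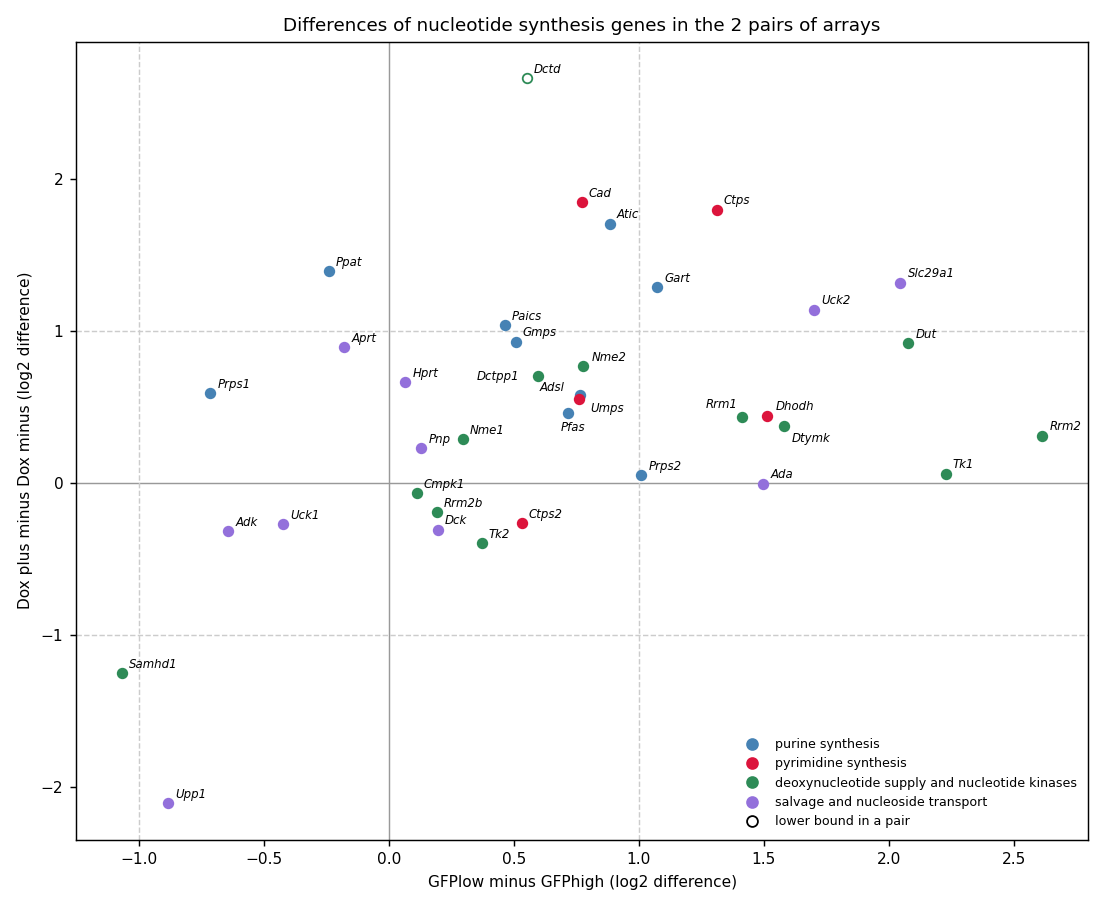
Log2 difference of each gene measured in both pairs, GFPlow minus GFPhigh on the x axis and Dox plus minus Dox minus on the y axis, 1 point a gene; colours give the role, an open point is a lower bound in a pair, and dashed lines mark 2-fold. Rrm2, Tk1 and Dtymk lie far to the right and low on the y axis, Cad, Atic and Ppat high on the y axis, and Samhd1 and Upp1 at the lower left.

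Many of the genes have several probe sets, which read the same RNA on the same array and are not replicates. In the GFP pair 18 genes had more than 1 measured probe set and in 17 these all went the same way, the exception being Paics. In the Dox pair it was 16 of 18, the exceptions being Rrm2b and Dck. Of the 8 such genes past 2-fold in the GFP pair, 5 were past it in every measured probe set, and Prps2, Gart and Samhd1 were not. In the Dox pair it was 4 of 7, and Gart, Paics and Samhd1 were not.

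**Figure D4:**
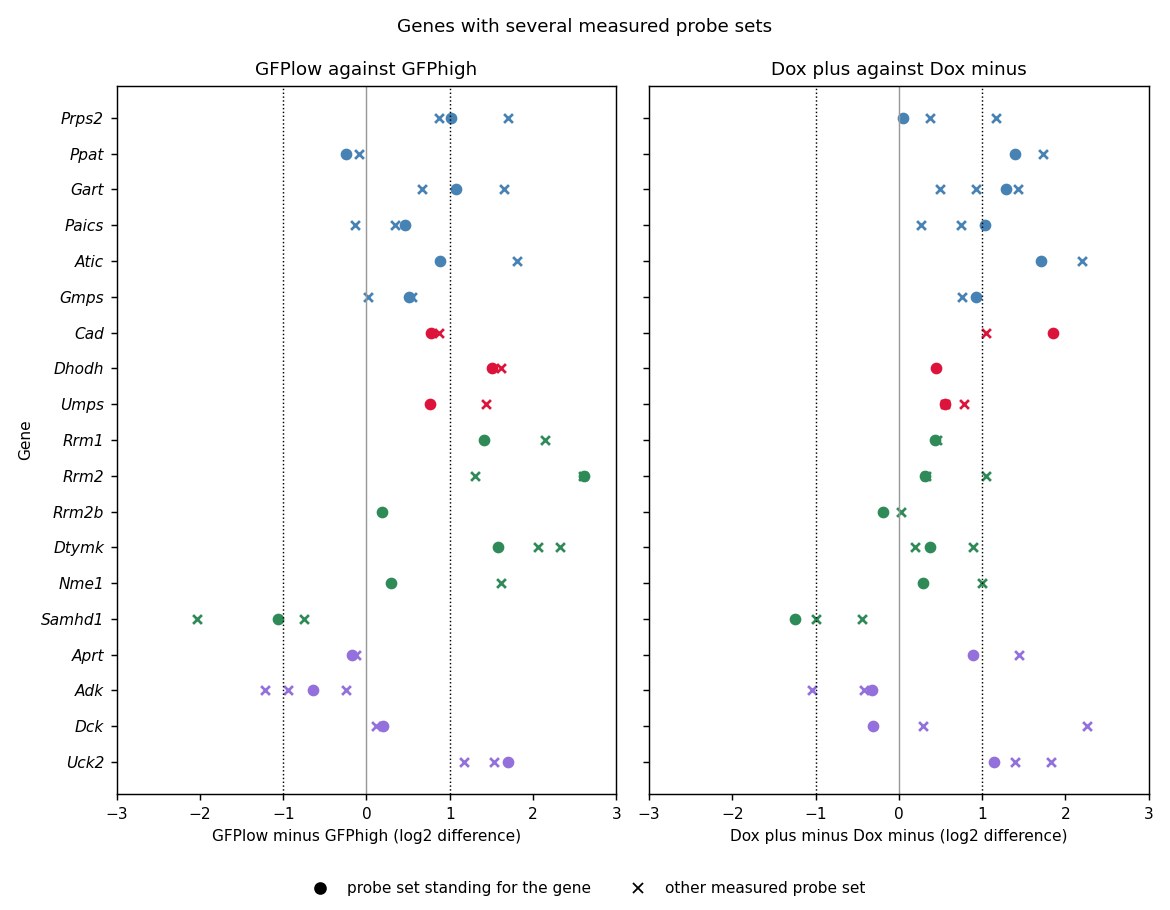
Log2 difference of every measured probe set of the genes with several, GFPlow minus GFPhigh on the left and Dox plus minus Dox minus on the right; the dot is the probe set that stands for the gene, crosses are the others, low values stand at the floor, and dotted lines mark 2-fold. The crosses of Rrm1, Dtymk, Uck2 and Samhd1 keep to the side of their dots in both panels, and those of Dck spread across 0 on the right.

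Other genes of nucleotide metabolism were taken from lists chosen by role. Measured were 14 genes for other nucleotide kinases and interconversion. In GFPlow 1 (7.14%) was at least 2-fold higher and 2 (14.3%) at least 2-fold lower, against 8.81% and 4.30% of all measured genes. In Dox plus 1 (7.14%) was higher and 1 (7.14%) lower by as much, against 6.93% and 5.35%. The medians were 0.04 and 0.10. The AMP deaminase Ampd2 differed by 1.33 in the GFP pair, the mitochondrial kinase Ak4 by -1.20 and the cytidine deaminase Cda by -1.03. In the Dox pair Nme6 differed by 1.77, Adss, which starts the branch from IMP to AMP, by 0.91, and Cmpk2, a mitochondrial kinase known to be induced by interferon, by -3.65. Cmpk2 values were 6.28 in GFPlow against 7.14 in GFPhigh (-0.86) and 7.38 in Dox plus against 11.03 in Dox minus (-3.65).

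Among genes for breakdown and clean-up, 14 were measured. In GFPlow 3 (21.4%) were at least 2-fold higher and 1 (7.14%) at least 2-fold lower, against 8.81% and 4.30% of all measured genes. In Dox plus 3 (21.4%) were higher and 3 (21.4%) lower by as much, against 6.93% and 5.35%. The medians were 0.39 and 0.13. Xdh, the enzyme that turns xanthine into urate at the end of purine breakdown, was lower in both pairs. For Xdh the arrays gave 10.35 on GFPlow, 11.58 on GFPhigh, 7.29 on Dox plus and 8.99 on Dox minus, with differences of -1.23 within the GFP pair and -1.70 within the Dox pair. Mtap, which frees adenine from a by-product of polyamine synthesis, was higher by 1.56 in GFPlow and by 1.86 in Dox plus. Its measured probe sets ranged from 0.26 to 1.56 in the GFP pair and from 1.66 to 1.86 in the Dox pair. The nucleotidases Nt5c3b (2.03 in the GFP pair) and Nt5m (1.96 in the Dox pair) had the largest differences in favour of GFPlow and Dox plus among genes with both values of a pair reaching the floor. The measured probe sets of Nt5c3b ranged from 0.81 to 2.03 in the GFP pair.

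The pentose phosphate pathway, which supplies the ribose, stayed within 2-fold in all 6 measured genes and both pairs, with medians of 0.13 and 0.21. Transketolase (Tkt) differed most in the GFP pair, by 0.46, followed by Rpe (0.42) and Pgls (0.23). In the Dox pair Rpia differed by 0.59, Pgls by 0.48 and Tkt by 0.32. Of the other nucleoside transporters, Slc29a3 differed by 1.04 and Slc28a3 by -1.42 in the GFP pair, while in the Dox pair Slc29a3 alone was measured, at 0.03. The measured probe sets of Slc28a3 ranged from -1.42 to -0.30 in the GFP pair. Myc itself differed by 1.46 in the GFP pair and by 2.88 in the Dox pair.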

How the data were processed

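The authors deposited log2 expression values for 45101 probe sets on 4 arrays. Per the submitters' processing notes the values come from GCRMA, which models background from probe sequence. The version and the arrays handled together were not given in these sources. The scale follows from the values (0.47 to 16.27), and the floor of 5 was set because the background model decides the low ones. Probe sets with several gene symbols (932) or none (9211) were not used. Each difference is GFPlow minus GFPhigh or Dox plus minus Dox minus, and with 1 array a group no test was run. All genes of the set are named. Of each list of other nucleotide metabolism, pentose phosphate and transporter genes, the 3 measured genes with the largest absolute difference per pair are named, or all where fewer were measured. The S phase, mitosis, Wnt target and interferon-stimulated lists are given as counts, medians or summed signals. Markers and Myc were added for context. Members, lists and motifs were chosen with earlier results of these data known. Alternatives were floors of 4 and 6, no floor, quantile normalization, a loess correction (span 0.4), the mean of measured probe sets, dropping _x_at, _s_at and _a_at probe sets, thresholds of 1.5-fold and 3-fold, and Tk1 and Tk2 as salvage genes. Python 3.11.15, pandas 2.3.3 and statsmodels 0.14.6 were used.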

Additional observations from a re-analysis of the deposited data

How the results depend on the processing

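No paired analysis was possible because each group is 1 array. Over the alternative floors, scalings and choices of probe set, the counts of genes at least 2-fold higher in GFPlow or in Dox plus and both medians stayed within 1.5 times their values, and the count lower in GFPlow stayed at 1. The count lower in Dox plus was 1 instead of 2 with the mean of measured probe sets. A 1.5-fold threshold gave 19 higher and 4 lower in GFPlow and 16 higher in Dox plus, where 18.4%, 12.6% and 17.4% of all measured genes were. A 3-fold threshold gave 5 higher and 0 lower in GFPlow, and 4 higher and 1 lower in Dox plus, against 3.71%, 0.991%, 2.09% and 2.15% of all measured genes. These follow from the threshold itself. Of 13 genes past 2-fold in the GFP pair 11 kept their call under every alternative floor, scaling and probe set choice that gave them a value, and of 11 in the Dox pair 9. The exceptions were Prps2 (0.98 with quantile normalization), Ctps (0.96 for GFPlow with a floor of 6), Paics (0.98 with loess, 0.68 as the mean of probe sets, 0.74 without _x_at, _s_at and _a_at probe sets, all in the Dox pair) and Samhd1 (-0.89 in the Dox pair as the mean of probe sets). The Samhd1 mean is a bound, because 1 of its probe sets lay under the floor on Dox plus. Crossing 2-fold were Atic (1.35) and Umps (1.10) in the GFP pair and Aprt (1.17) in the Dox pair as means of probe sets, and Dctd (1.55) and Nme4 (1.15) in the GFP pair with a floor of 4. In the Dox pair Prps2 (-0.01 with loess), Tk1 (-0.04 with quantile normalization) and Dck (0.75 as the mean of probe sets) changed sign, all within 2-fold, and the medians of single roles moved as given above. Why single values moved was not tested beyond what each setting changes. Quantile normalization put the median of all measured genes at -0.01 in the Dox pair, against 0.06 as deposited. How far 1 array would differ from another of its group is unknown here.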
